A study of Mus musculus with 6 samples.

Results

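The genes described here encode the core machinery that docks, primes and fuses secretory granules with the plasma membrane: Snap25, Stx1a, Vamp2, Syt4, Syt7, Syt13, Unc13a, Rims2 and Pclo. They were chosen by name, with earlier results of these data known. Every probe set that the platform annotation assigns to exactly 1 of these symbols was used. This gave 23 probe sets for 9 genes, of 45037 probe sets and 18193 named genes measured. Islets of Langerhans of Tead1KO mice, in which Tead1 was knocked out in beta cells (3 arrays), were compared with islets of Flox mice (3 arrays). The mice of both groups were 12-week-old C57Bl6 males. Total RNA of hand-picked islets was labelled with biotin and hybridized to an Affymetrix mouse expression array. The labels name no Cre driver and do not say whether the Flox mice carried Cre. The series' design text counts 3 knockout and 3 flox mice, while the sample labels do not say which array came from which mouse.

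In regulated exocytosis, VAMP2 on the granule membrane zips together with syntaxin-1A and SNAP-25 on the plasma membrane into the SNARE complex, and this pulls the membranes together. Some synaptotagmins on the granule sense the rise in calcium that follows glucose stimulation in beta cells. Munc13, RIM and Piccolo hold granules near calcium channels and make them ready to fuse. The same proteins serve synapses in neurons. Tead1, the gene deleted in beta cells, encodes a DNA-binding transcription factor at the end of the Hippo pathway.

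Some properties of the arrays touch all results below. The hybridization controls, bacterial transcripts spiked into every sample, had mean log2 signals of 12.09, 10.87 and 13.23 in the Tead1KO arrays (replicates in order), against 11.89, 10.96 and 10.60 in the Flox arrays. Signals over all probe sets had their narrowest interquartile range in Tead1KO replicate 3 (2.65, against 2.99 to 3.32 in the other 5 arrays). Bacterial control probe sets with no added transcript read between 2.87 and 4.70, and a probe set whose mean lay in this range was treated as within background. The brighter of the Tead1 probe sets read 6.72, 7.49 and 5.95 in the Tead1KO arrays, against 7.22, 6.99 and 7.40 in the Flox arrays. Its groups overlapped and it did not pass (limma adjusted p = 0.871). Whether these probe sets lie inside the deleted part of Tead1 is not known here, so they may check nothing.

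The probe sets of 3 of the 9 genes could be set beside a promoter sequence in the RefSeq table (build GRCm38.p6). The 250 bases upstream of the start are printed 5′ to 3′ on the gene's strand for those genes, because the factor removed from beta cells binds DNA. The motifs searched on both strands were the TEAD core motif GGAATG, the GC box GGGCGG and the cAMP response half-site TGACG, which do not overlap each other; capitals mark GC boxes on either strand.
Stx1a, chr5:135023232-135023481, plus strand: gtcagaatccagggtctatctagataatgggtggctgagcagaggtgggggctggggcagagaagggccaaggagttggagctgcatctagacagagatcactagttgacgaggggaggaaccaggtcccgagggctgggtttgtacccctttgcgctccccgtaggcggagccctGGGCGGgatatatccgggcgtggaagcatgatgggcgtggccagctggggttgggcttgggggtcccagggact
Unc13a, chr8:71671758-71672007, minus strand: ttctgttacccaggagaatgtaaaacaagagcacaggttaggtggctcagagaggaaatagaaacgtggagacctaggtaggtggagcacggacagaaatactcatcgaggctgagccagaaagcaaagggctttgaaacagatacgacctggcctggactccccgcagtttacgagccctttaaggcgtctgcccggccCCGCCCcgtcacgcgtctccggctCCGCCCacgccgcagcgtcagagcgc
Pclo, chr5:14514668-14514917, plus strand: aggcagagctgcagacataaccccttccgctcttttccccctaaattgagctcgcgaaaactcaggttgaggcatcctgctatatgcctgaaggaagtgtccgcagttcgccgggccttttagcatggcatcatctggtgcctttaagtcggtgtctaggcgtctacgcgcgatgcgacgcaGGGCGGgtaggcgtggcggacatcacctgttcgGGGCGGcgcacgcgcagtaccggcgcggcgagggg
The TEAD core motif was in 0 of these 3 windows, and in 12.6% of the 32851 windows of the same length in the table. The GC box was in all 3 windows (32.7% of all windows) and the TGACG half-site in 2 of them, those of Stx1a and Unc13a (17.8% of all windows). Among 95 windows of the further exocytosis genes described below, the GC box was in 60.0%. The half-site was in 21.1% of those 95 and the TEAD core motif in 14.7%. A match of letters is a description and says nothing about binding.

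None of the 9 genes passed the test between Tead1KO and Flox islets. Of their 23 probe sets, 0 were called by limma at an adjusted p under 0.05 (smallest adjusted p = 0.871), where 0.18% of all probe sets were called, 0.131% with higher and 0.0488% with lower values in Tead1KO. At an unadjusted p under 0.05 the count was 1 of 23, a probe set of Rims2 with lower values in Tead1KO, against 5.18% of all probe sets (2.81% lower, 2.37% higher). The groups did not overlap for the same single probe set, against 10.5% of all probe sets (5.16% lower, 5.36% higher). The 9 genes' shares are near this background. Of the 23 log2 differences, 19 lay below 0 and 4 above, where 19867 of all 45037 probe sets lay below 0. Probe sets of the same gene are not independent observations. Above background, 17 of 20 lay below 0, where 15168 of all 27806 probe sets above background did. At the brightest probe set of each gene, 7 of 9 lay below 0, where 9291 of all 18193 genes did. The median difference was -0.09 over the 9 genes and -0.01 over all 18193 genes. Islets are a mixture of cells, so fewer cells of a type and less RNA per cell cannot be told apart in any of these values.

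**Figure D1:**
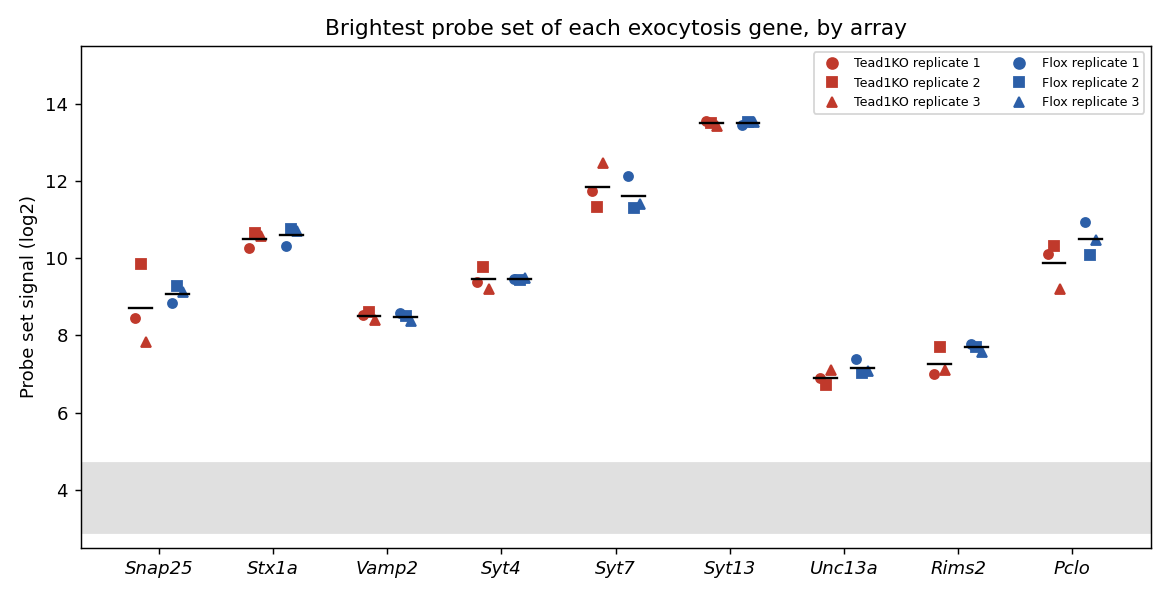
Log2 signal (y axis) of the brightest probe set of each of the 9 genes (x axis); points are single arrays (red Tead1KO, blue Flox, symbol by replicate), black bars mark group means, and grey shading marks the unspiked control range, 2.87 to 4.70. The groups overlap for each of the 9 genes, and the Tead1KO arrays of Snap25 are spread between 7.82 and 9.85.

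The SNARE proteins themselves are encoded by Snap25, Stx1a and Vamp2. Snap25, a plasma membrane SNARE, read 8.46, 9.85 and 7.82 in the Tead1KO arrays, against 8.85, 9.28 and 9.12 in the Flox arrays. The Tead1KO arrays held both the highest and the lowest value of the 6 arrays. The log2 difference was -0.37 (SE 0.45, limma adjusted p = 0.884; the exact permutation test, which cannot go below 0.1, gave p = 0.6), and the 95% interval of the fold ran from 0.375 to 1.59. The standard deviation was 1.04 in Tead1KO and 0.22 in Flox (n = 3 each).

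The Snap25 values were ordered by array in nearly the reverse of the hybridization controls. The lowest Snap25 value came from Tead1KO replicate 3, which had the highest controls. The highest came from Tead1KO replicate 2, which had controls of 10.87. A fit that held the controls as a covariate gave 0.28 (adjusted p = 1.0). Leaving out Tead1KO replicate 2 gave -0.94 (adjusted p = 0.116), and leaving out Tead1KO replicate 3 gave 0.07 (adjusted p = 1.0). The second Snap25 probe set was within background.

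Stx1a encodes syntaxin-1A, the plasma membrane SNARE that pairs with SNAP-25. Its brightest probe set read 10.28, 10.65 and 10.57 in Tead1KO, against 10.32, 10.75 and 10.70 in Flox. In both groups replicate 1 was the lowest array, and the ranges overlapped almost fully. On the log2 scale Tead1KO and Flox differed by -0.09 (SE 0.18, limma adjusted p = 0.920), with a 95% interval of the fold from 0.705 to 1.25. This probe set carries a suffix that marks possible matches to other transcripts. The dimmer probe set, which does not carry it, differed by 0.10 (SE 0.15, limma adjusted p = 0.896).

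Vamp2 encodes the granule SNARE. It read 8.54, 8.61 and 8.39 in Tead1KO, against 8.59, 8.50 and 8.38 in Flox. In log2 units the groups differed by 0.02 (SE 0.16, limma adjusted p = 0.978), and the 95% interval of the fold was 0.792 to 1.31. The 6 arrays lay within a narrow range here, and the dimmer probe set differed by -0.10 (SE 0.17).

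The synaptotagmins among the 9 genes are Syt4, Syt7 and Syt13. Syt4 encodes a synaptotagmin linked to beta cell maturation in mice. It read 9.38, 9.76 and 9.21 in Tead1KO, against 9.46, 9.44 and 9.48 in Flox. The Flox arrays were almost equal and the Tead1KO arrays lay on both sides of them, with replicate 2 the highest and replicate 3 the lowest, as for Snap25. The log2 difference was -0.01 (SE 0.18, limma adjusted p = 0.991), and the 95% interval of the fold was 0.744 to 1.32. The dimmer probe set differed by -0.03.

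Syt7 encodes a high-affinity calcium sensor of insulin and glucagon granules. Its 4 probe sets did not order the arrays alike. The brightest read 11.73, 11.32 and 12.46 in Tead1KO, against 12.12, 11.31 and 11.41 in Flox, with the highest value in Tead1KO replicate 3. The next brightest read 11.00, 11.03 and 10.22 in Tead1KO, against 11.11, 10.87 and 11.03 in Flox, with the lowest value in that same array. Their log2 differences were 0.23 (SE 0.32) and -0.26 (SE 0.23), with limma adjusted p = 0.892 and 0.871. The second of these was 0.0094 without Tead1KO replicate 3 (adjusted p = 1.0). The other two differed by -0.02 and -0.26. For the brightest probe set, adding the spiked controls as a covariate gave a difference of -0.24 (adjusted p = 0.980), and leaving out Tead1KO replicate 3 gave -0.08 (adjusted p = 1.0).

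Syt13 encodes a synaptotagmin that does not depend on calcium for membrane binding. Its brightest probe set read 13.55, 13.50 and 13.44 in Tead1KO, against 13.46, 13.52 and 13.53 in Flox. It had the narrowest interval among the brightest probe sets of the 9 genes, from 0.847 to 1.16 in fold, with a log2 difference of -0.01 (SE 0.10, limma adjusted p = 0.983). This probe set was the brightest of the 23. The dimmer probe set read 7.98, 8.91 and 8.25 in Tead1KO, against 8.50, 8.66 and 8.60 in Flox. Again the Tead1KO arrays enclosed the Flox arrays, and the log2 difference was -0.21 (SE 0.24, limma adjusted p = 0.881).

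**Figure D2:**
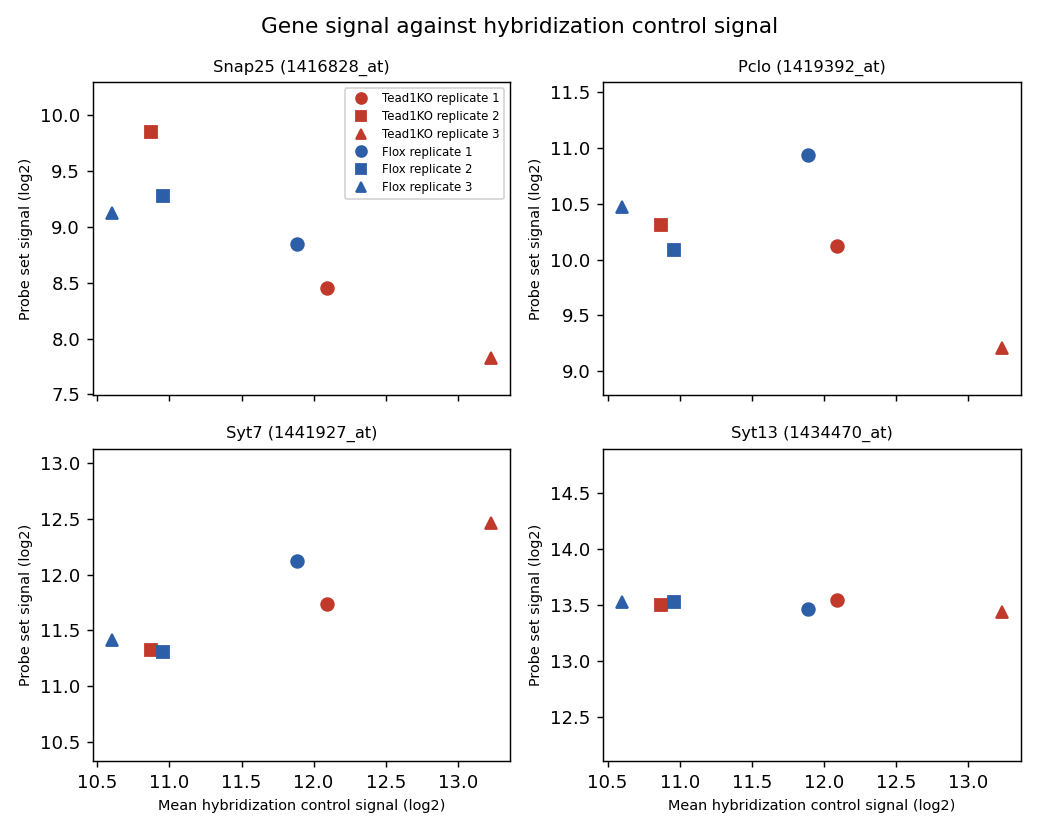
Log2 signal of 4 probe sets (y axis, each panel spans the same log2 range) against the mean log2 signal of the spiked hybridization controls (x axis); points are single arrays (red Tead1KO, blue Flox, symbol by replicate). Tead1KO replicate 3, with controls at 13.23, has the lowest Snap25 (7.82) and Pclo (9.21) and the highest Syt7 (12.46), while Syt13 stays between 13.44 and 13.55.

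The priming and active zone genes are Rims2, Pclo and Unc13a. At the brightest probe sets Pclo and Rims2 had the largest differences of the 9 genes, and neither passed. Rims2 encodes RIM2, the Rab3 effector that tethers granules and brings calcium channels to them. All 5 Rims2 probe sets had log2 differences below 0, and they share a gene, so they are not independent observations. The brightest read 7.0, 7.69 and 7.09 in Tead1KO, against 7.79, 7.70 and 7.57 in Flox. Replicates 1 and 3 of Tead1KO lay below the Flox arrays and replicate 2 lay among them. On the log2 scale Tead1KO and Flox differed by -0.43 (SE 0.21, limma adjusted p = 0.871, exact permutation p = 0.2), and the 95% interval of the fold ran from 0.528 to 1.05. With the spiked controls in the fit the difference was -0.28 (adjusted p = 1.0). The part of the array differences in the values of Snap25, Syt7, Rims2 and Pclo was not tested.

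The second Rims2 probe set was the only one of the 23 whose groups did not overlap. It read 6.22, 6.63 and 6.80 in Tead1KO, against 7.48, 6.91 and 7.02 in Flox. In log2 units the groups differed by -0.59 (SE 0.23, unadjusted limma p = 0.0309, adjusted p = 0.871, exact permutation p = 0.1, the smallest possible). Its suffix marks possible matches to several transcripts.

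The dimmer Rims2 probe set with the largest difference read 4.29, 5.36 and 4.10 in Tead1KO, against 5.20, 5.46 and 5.13 in Flox. Replicates 1 and 3 of Tead1KO lay within background and replicate 2 lay among the Flox arrays, as for the brightest probe set. The fitted log2 difference was -0.68 (SE 0.31, limma adjusted p = 0.871). Without Tead1KO replicate 2 this probe set had a limma adjusted p of 0.0477, the only one under 0.05 for the 9 genes with any array left out. Both Tead1KO arrays in that fit lay within background, so the size of the difference was not measured there. In that fit 239 of all probe sets were called, against 81 with all arrays. Of the last 2 Rims2 probe sets, one differed by -0.24 and the other lay within background.

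**Figure D3:**
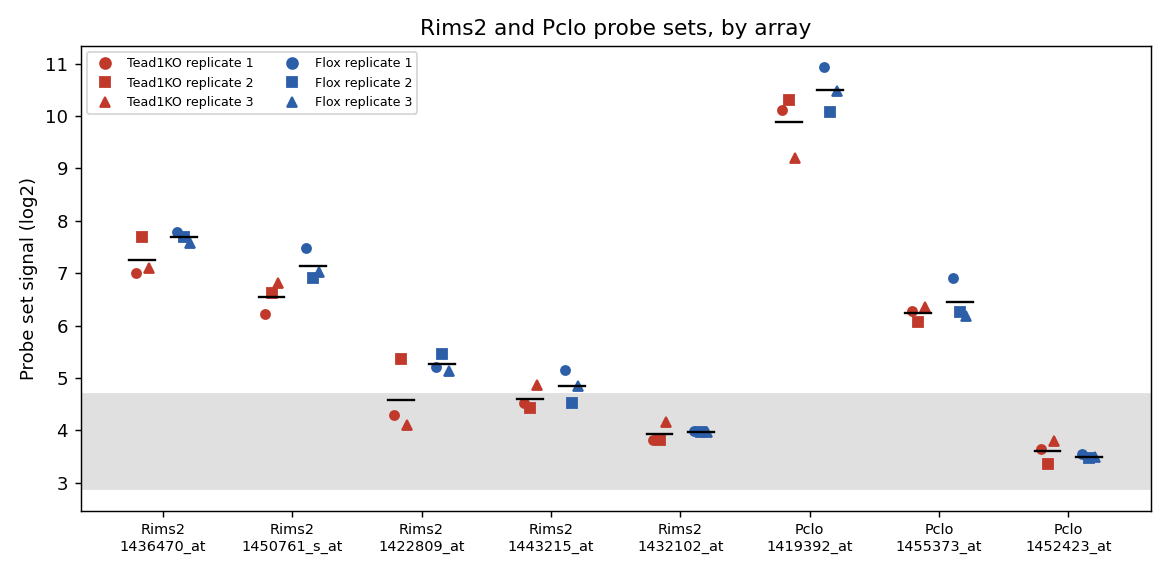
Log2 signal (y axis) of the 5 Rims2 and 3 Pclo probe sets (x axis); points are single arrays (red Tead1KO, blue Flox, symbol by replicate), black bars mark group means, and grey shading marks the unspiked control range, 2.87 to 4.70. The groups separate only for the second Rims2 probe set, and Tead1KO replicate 2 lies among the Flox arrays for the brightest one and for the one with values near 4.29 and 4.10.

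Pclo encodes Piccolo, a large scaffold of the active zone that in beta cells takes part in cAMP-dependent insulin secretion. Its brightest probe set read 10.12, 10.31 and 9.21 in Tead1KO, against 10.93, 10.08 and 10.48 in Flox. The value of Tead1KO replicate 3 was the lowest of the 6 arrays, and the other Tead1KO arrays lay among the Flox arrays. On the log2 scale Tead1KO and Flox differed by -0.62 (SE 0.32, limma adjusted p = 0.871, exact permutation p = 0.3), and the 95% interval of the fold ran from 0.389 to 1.09. Without Tead1KO replicate 3 the difference was -0.28 (adjusted p = 1.0). With the spiked controls in the fit it was -0.40 (adjusted p = 1.0). The second Pclo probe set differed by -0.21 (SE 0.22), and the last lay within background.

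Unc13a encodes Munc13-1, which opens syntaxin and primes granules for fusion. Its single probe set read 6.90, 6.71 and 7.11 in Tead1KO, against 7.39, 7.02 and 7.08 in Flox. Tead1KO replicates 1 and 2 lay below all Flox arrays and replicate 3 lay among them. In log2 units the groups differed by -0.26 (SE 0.19, limma adjusted p = 0.871, exact permutation p = 0.3), and the 95% interval of the fold ran from 0.622 to 1.12. Adding the spiked controls as a covariate gave -0.44 (adjusted p = 0.638). Leaving out Flox replicate 1 gave -0.15 (adjusted p = 0.858), and leaving out Tead1KO replicate 2 gave -0.16 (adjusted p = 0.638).

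**Figure D4:**
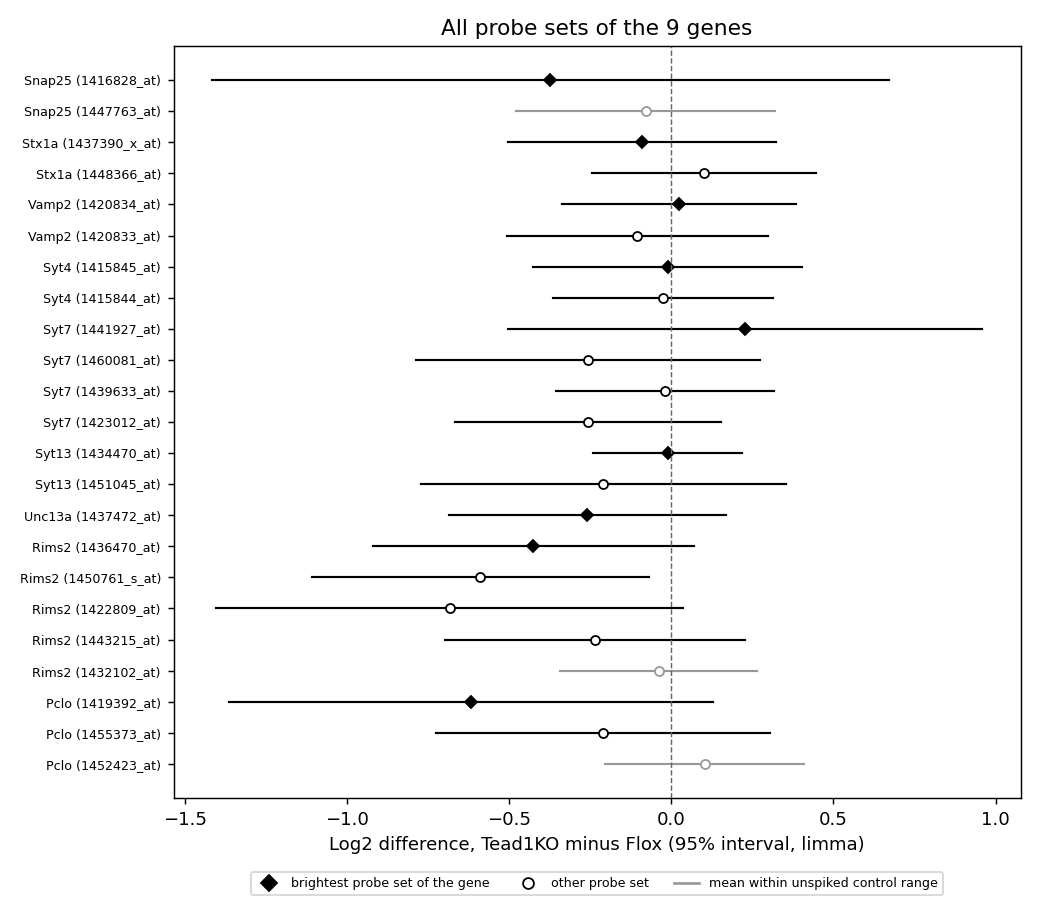
Log2 difference between Tead1KO and Flox (x axis) with its 95% interval from limma for all 23 probe sets of the 9 genes (y axis); filled diamonds are the brightest probe set of a gene, open circles the others, and grey marks probe sets within background. Every interval except that of the second Rims2 probe set (-1.11 to -0.07) includes 0.

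The intervals differed in what they leave possible. For 4 of the 9 genes, Stx1a, Vamp2, Syt4 and Syt13, the 95% interval at the brightest probe set lay within 1.5-fold in either direction. For Snap25, Syt7, Unc13a, Rims2 and Pclo it was wider. These intervals are not adjusted for the number of probe sets, and a p above the threshold does not show that the groups were alike. The Tead1KO standard deviation exceeded that of Flox in 17 of the 23 probe sets (73.9%), close to the 75.3% of all probe sets. Tead1KO replicate 3 held the lowest value for 4 of the 9 genes, and it held the lowest value for 37.9% of all genes.

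Markers of several cell types were measured in the same arrays, and those of beta, endocrine, neuron, Schwann and acinar cells are given here. The beta cell markers (8 measured, mean log2 signal per array) lay between 12.25 and 12.74 in Tead1KO, against 12.86 to 13.06 in Flox. The single markers did not differ alike. Ins2 differed by -0.0050, Iapp by 0.03 and G6pc2 by -0.13. Slc30a8 differed by -0.48, Pdx1 by -0.66, Slc2a2 by -0.82, Ucn3 by -0.95 and Nkx6-1 by -0.95. Of the 8 markers, 0 were called and 4 had an unadjusted p under 0.05 in limma, all 4 with lower values in Tead1KO. Over all genes, 7.23% had such a p (4.22% lower, 3.01% higher). The means of the 7 markers shared by all endocrine cells, such as chromogranins, lay between 12.65 and 13.08 in Tead1KO, against 13.02 to 13.07 in Flox. The lowest mean was in Tead1KO replicate 3. Of these 7 markers, 0 were called and 2 had an unadjusted limma p under 0.05, against 7.23% of all genes. Chga was lower (-0.26) and Scg2 higher (0.29) in Tead1KO, so the means average opposite differences. Neurod1 differed by -0.66, Isl1 by -0.44, Cpe by -0.25, and Chgb and Scg3 each by -0.01. Of the 6 neuron markers, 0 were called and 3 had an unadjusted p under 0.05, 2 lower and 1 higher in Tead1KO, against the same 7.23% of all genes (4.22% lower, 3.01% higher). The log2 differences of those 3 were -1.24 for Th, -1.10 for Elavl4 and 1.07 for Nefm. Prph, Elavl3 and Nefl differed by 0.04, 0.02 and 0.38. Whether Th, Elavl4 and Nefm read neurons alone in islets was not tested. The means of the 6 neuron markers average opposite differences. They lay between 6.82 and 7.14 in Tead1KO, against 7.03 to 7.15 in Flox. The means of the 3 Schwann cell markers lay between 5.21 and 5.90 in Tead1KO, against 5.31 to 5.38 in Flox. None of these neuron and Schwann cell markers lay within background. The acinar markers varied between arrays of the same group, from 12.16 to 14.18 in Tead1KO, against 11.96 to 14.28 in Flox. The part of these cell types in the values of the 9 genes was not tested.

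Beyond the 9 genes, 85 of 90 further exocytosis genes were measured, each at its brightest probe set; the others were not analysed here. Of the 85, 0 were called by limma, where 0.308% of all genes were called (0.231% higher, 0.077% lower). At an unadjusted p under 0.05 the count was 9 of 85, 7 of them with lower and 2 with higher values in Tead1KO, against 7.23% of all genes (4.22% lower, 3.01% higher). The groups did not overlap for 17 of the 85, 14 lower and 3 higher in Tead1KO, against 13.1% of all genes (7.27% lower, 5.8% higher). The median log2 difference was -0.14, against -0.01 over all genes.

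The active zone scaffolds held the furthest single gene. Rims3, a short relative of RIM2 that lacks the Rab3-binding part, read 6.31, 7.30 and 6.46 in Tead1KO, against 7.88, 8.23 and 8.41 in Flox. The groups did not overlap, and the log2 difference of -1.49 (SE 0.28) had a limma adjusted p of 0.172. It passed in limma when Tead1KO replicate 2 was left out (difference -1.79, adjusted p = 0.0172). With any other array left out it did not pass (limma adjusted p from 0.189 to 0.861). Fits that held the hybridization controls (-1.14, adjusted p = 0.0424) or 18S rRNA (-1.17, adjusted p = 0.0468) as a covariate also called it. Without Tead1KO replicate 2, with the controls and with 18S rRNA, 239, 268 and 323 of all probe sets were called, against 81 in the main fit. The dimmer Rims3 probe set differed by -0.36 (limma adjusted p = 0.871). Erc2, an active zone scaffold that binds RIM, read 6.87, 7.03 and 6.78 in Tead1KO, against 7.60, 7.63 and 7.85 in Flox (log2 difference -0.80, SE 0.16, limma adjusted p = 0.222). Rimbp2, a RIM-binding protein, differed by -0.34. Over the 11 scaffolds measured, 6 lay below 0 and 5 above, with a median of -0.02.

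Among the priming genes, Baiap3, a Munc13 relative, read 10.28, 10.07 and 9.76 in Tead1KO, against 10.75, 10.76 and 11.29 in Flox. The groups did not overlap, and the log2 difference was -0.90 (SE 0.21, limma adjusted p = 0.322). Unc13b, which encodes Munc13-2, differed by -0.41 and also had no overlap, and Cadps, which encodes the priming factor CAPS1, differed by -0.36. The median of the 6 priming genes was -0.20.

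The vesicle membrane proteins lay on both sides of 0. Sv2a, a vesicle glycoprotein, read 7.31, 7.47 and 7.23 in Tead1KO, against 7.92, 8.09 and 7.95 in Flox (log2 difference -0.65, SE 0.16, limma adjusted p = 0.364). Its relative Sv2b read 7.44, 7.10 and 6.80 in Tead1KO, against 6.77, 6.56 and 6.43 in Flox (log2 difference 0.52, SE 0.21, limma adjusted p = 0.871). Both had separate groups, with Sv2a lower and Sv2b higher in the Tead1KO arrays, and the dimmer Sv2b probe set differed by 0.94 (SE 0.21, limma adjusted p = 0.294). Syn2, a synapsin, differed by -0.55, and its 5 other probe sets by -0.07 to -0.47. Of the 9 genes measured in this group, 5 lay below 0.

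Among the other synaptotagmins and Doc2 proteins (16 measured, median -0.07), Syt17 differed by 0.64 with separate groups (SE 0.19, limma adjusted p = 0.587). Syt2, a fast calcium sensor of synapses, differed by -0.49 (limma adjusted p = 0.852), and Syt11 by -0.32. Among the genes of Rab3, the granule GTPase that binds RIM, and its effectors (8 measured, median -0.28), Rab3b differed by -0.73 with separate groups (limma adjusted p = 0.513), Rab3gap2 by -0.61 and Rab3c by 0.38.

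The remaining groups held 0 genes with an unadjusted p under 0.05. For the counts below, 9291 of all 18193 genes had a difference below 0. All 6 measured relatives of Snap25 and Stx1a, listed as plasma membrane SNAREs, lay below 0 (median -0.27). Snap29 was at -0.34, Snap23 at -0.64 and Stx3 at -0.35. The list also holds Snap47, and the membranes on which these proteins act were not tested. Of the 6 other vesicle SNAREs, 4 lay below 0 (median -0.24), with Vamp7 at -0.81, Vamp3 at -0.40 and Vamp4 at -0.60. Of the 9 exocyst subunits, which tether vesicles before fusion, 8 lay below 0 (median -0.27), with Exoc7 at -0.41, Exoc5 at -0.76 and Exoc1 at -0.25. Each vesicle SNARE and exocyst gene named here was lowest in Tead1KO replicate 3, which was lowest for 37.9% of all genes. Exoc5 read 8.68, 9.47 and 7.67 in Tead1KO, against 9.07, 9.56 and 9.46 in Flox. Vamp7 read 8.61, 9.84 and 8.05, against 9.41, 9.85 and 9.67. The Tead1KO standard deviation exceeded that of Flox in all 6 vesicle SNAREs and all 9 exocyst subunits, against 76.2% of all genes. The SNARE disassembly genes had a median of -0.16, with the ATPase Nsf at -0.43 and its adaptors Napa at -0.26 and Napb at 0.23. The syntaxin-binding proteins had a median of -0.05, with Stxbp5 (tomosyn) at -0.85, Stxbp4 at 0.30 and Stxbp5l at -0.28. The complexins, clamps of the SNARE complex, had a median of 0.08, with Cplx1 at 0.24, Cplx3 at -0.17 and Cplx4, within background, at 0.11.

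**Figure D5:**
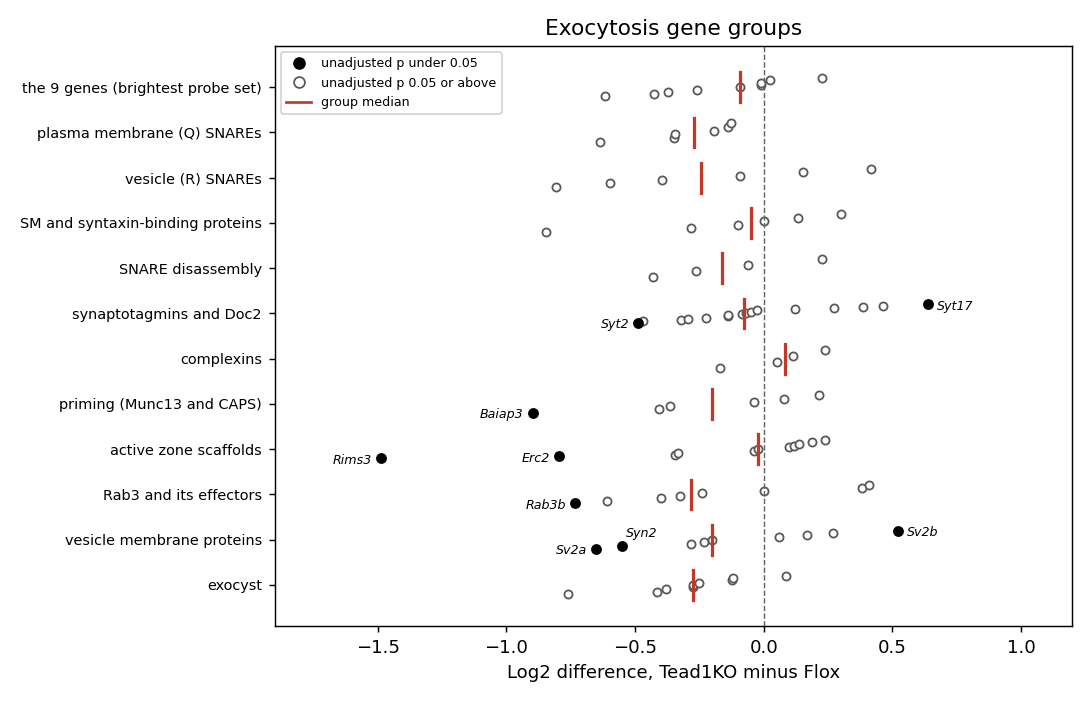
Log2 difference between Tead1KO and Flox (x axis) at the brightest probe set of each of the 9 genes and of the 85 further exocytosis genes, by group (y axis); points are genes, filled where the unadjusted p was under 0.05, and red bars are group medians. Rims3 lies furthest from 0 at -1.49, and no gene passed after adjustment over all probe sets.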

How the data were processed

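The values analysed were log2 probe set signals of 6 arrays, deposited by the authors as a single value table. Per the submitters' processing notes they were made with Affymetrix Expression Console. The sources used here do not give its version or how it corrected, scaled and summarised the signals. The log2 scale was read from the values, which lay between 2.75 and 15.71. Probe sets were named from the platform annotation, and only those with a single gene symbol were given a name.

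From the deposited values, Tead1KO was compared with Flox in 1 model over all 45037 non-control probe sets with limma 3.58.1 under R 4.3.3 (lmFit, eBayes with a variance trend, no covariate, no filter on dim signals). P-values were adjusted over all 45037 probe sets by the Benjamini-Hochberg method, and a probe set with an adjusted p under 0.05 was called. The procedure was tested on simulated data (values drawn from the means and spreads of these probe sets, with known differences added to some). Where 1 value per gene was needed, its brightest probe set (highest average of the 6 arrays) was taken. An exact permutation test (two-sided) was run beside the model for single genes.

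The 9 genes, the 90 other exocytosis genes and the cell type markers were chosen with earlier results of these data known. From each group of the 90, up to 3 genes with the smallest unadjusted p are named, together with every called gene. For a gene of the 9 whose brightest probe set had an unadjusted p under 0.05, the most similar genes were to be named; there was 0 such gene. Alternatives were other scalings, variance models, probe set summaries and filters, array quality covariates, a block for the replicate number, another threshold and each array left out in turn; a block for the level of the hybridization controls was added after the data were seen. Deviations of same-numbered arrays from their group means had correlations of 0.0955, 0.343 and -0.186 for numbers 1 to 3 (over probe sets above background). For arrays of unlike number the correlations ran from -0.414 to 0.338. The value for number 2 was thus the highest of all combinations. Because the 3 same-number values differed in sign, the numbers were not taken as pairs.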

Additional observations from a re-analysis of the deposited data

How the results depend on the processing

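The 9 genes had 0 calls under the alternatives tried, except 1 Rims2 probe set without Tead1KO replicate 2, whose remaining Tead1KO arrays lay within background, and 0 of 171 values at their brightest probe sets had an adjusted p under 0.05 in limma (lowest 0.116). In 32 of the 171 the sign turned. With quantile normalization Stx1a was 0.0458, Syt4 0.13 and Syt13 0.0637. With median centring Vamp2 was -0.0369. With a gene's probe sets averaged Stx1a was 0.0049, Vamp2 -0.0398 and Syt7 -0.0763. Without probe sets that carry an _x_at or _s_at suffix Stx1a was 0.10. With the hybridization controls as a covariate Snap25 was 0.28, Stx1a 0.0070, Syt4 0.15, Syt7 -0.24 and Syt13 0.0181. With 18S rRNA as a covariate they were 0.29, 0.0015, 0.15, -0.25 and 0.0180. With the actin 3'/5' difference Syt4 was 0.0754. With the control level as a block, chosen after seeing the data, Stx1a was 0.0145, Syt4 0.0671, Syt7 -0.0287 and Syt13 0.00020. With each array left out the range was -0.94 to 0.0705 for Snap25, -0.22 to 0.0218 for Stx1a, -0.0311 to 0.0850 for Vamp2, -0.17 to 0.11 for Syt4, -0.0845 to 0.49 for Syt7, -0.0384 to 0.0172 for Syt13, -0.36 to -0.15 for Unc13a, -0.64 to -0.30 for Rims2 and -0.83 to -0.28 for Pclo. Unc13a, Rims2 and Pclo kept a difference below 0 at the brightest probe set in each of these alternatives. Within the arrays with low controls (1 Tead1KO and 2 Flox), their differences were -0.34, 0.05 and 0.03. Within those with high controls (2 Tead1KO and 1 Flox), they were -0.38, -0.74 and -1.27. The cause of these turns was not tested. The median of the 9 genes was 0.0458 with quantile normalization, which put the median of all genes at 0.01, against -0.01 as deposited and -0.07 with median centring. The median of the 9 genes was also -0.0115 without suffixed probe sets, 0.0070 with the hybridization controls, 0.0015 with 18S rRNA, -0.15 with median centring, -0.0284 with the control level as a block and -0.17 to -0.0207 with each array left out.

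The count of called probe sets over the whole table was 81, and 143 with quantile normalization, 42 with median centring, 268 with the hybridization controls and 323 with 18S rRNA as a covariate, 143 at an adjusted p under 0.1 and 4 to 239 with each array left out (9, 11 and 11 without Flox replicates 1 to 3, and 4, 239 and 186 without Tead1KO replicates 1 to 3). The count for the 9 genes was 0 to 1 with each array left out. The further exocytosis genes had 1 call, Rims3, with the hybridization controls, with 18S rRNA and without Tead1KO replicate 2, and 0 to 1 calls with each array left out. With the replicate number as a block, the counts were 96 of all probe sets, 0 of the 23 and 0 of the 85, and the median of the 9 genes was -0.09. The block changed no call described here. In the labels, same-numbered arrays share only the number. The number of arrays limits the precision.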
